A study of Mus musculus with 6 samples.

Results

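The receptors described here are those by which myeloid cells sense the signals that call them out of the marrow and into tissue. They are the 10 genes Cxcr2, Cxcr4, Ccr1, Ccr2, Cx3cr1, Ccrl2, Fpr1, Fpr2, C5ar1 and Ltb4r1, taken by name from a table of 54532 genes. All 10 had a value of at least 1 FPKM (fragments per kilobase of gene, scaled to the fragments of the library) in at least 3 of the 6 libraries and so belonged to the 10913 genes tested. RNA was sequenced from CD11b-positive cells of tibial bone marrow of mice aged 12 weeks, in 3 libraries labelled Tshr+/+ (wild type) and 3 labelled Tshr-/-, whose genotype another label gives as a Tshr knockdown. The protein of Tshr is the thyroid-stimulating hormone (thyrotropin) receptor, and the study's title concerns that hormone, bone loss and AMPK signalling in osteoclasts. Cells of both groups were purified with the same CD11b kit. A label common to both names osteoclast differentiation as a treatment, with no culture step described. Details of the allele, of the strain and of whether a library is 1 mouse or a pool were not given in the sources used here. Only a numbered title sets the libraries of a group apart, so the p-values measure the spread between these libraries.

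Chemoattractant receptors are G protein-coupled receptors. A bound ligand activates an inhibitory G protein, whose released subunits turn on phosphoinositide 3-kinase gamma and Rac, and the cell crawls up the gradient. Receptor kinases and arrestins then silence the receptor and take it inside. In bone marrow the pair CXCR4 and CXCR2 sets neutrophil release: CXCR4 holds the cells near stromal cells that make CXCL12, and CXCR2 draws mature cells into the blood. CCR2 does the latter for classical monocytes.

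Depth and labels set the frame for the values. The libraries held 14698126 to 17976477 fragments. Tshr was measured at 0.537, 0.552 and 0.405 FPKM in Tshr+/+ 1, 2 and 3. The values labelled Tshr-/- 1, 2 and 3 were 0.414, 0.297 and 0.00825 FPKM, from 40, 25 and 1 fragments, so Tshr-/- 1 and 2 still held Tshr reads (two-sided exact permutation test between the groups, p = 0.2, where 0.1 is the smallest that 3 against 3 allows). The groups therefore carry the names of their labels, and results are also given without those libraries. The CD11b chain gene Itgam had between 87.4 and 133.6 FPKM over the libraries. RNA of other lineages was present too. In the B lineage list levels ran from Igkc, at 164 to 561 FPKM, down to Ms4a1, at no more than 0.122 FPKM. In the list of T and NK cells they ran from Nkg7, at 55.2 to 85.4 FPKM, down to Cd3e, at no more than 0.0444 FPKM.

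None of the 10 receptor genes differed between the genotypes past the threshold, and in none did the Tshr-/- values lie apart from the Tshr+/+ values. In limma's test across all genes, 0 of the 10 passed at an adjusted p under 0.05, where 0.0% of the 10913 genes did. At an unadjusted p under 0.05 stood 0 of the 10, against 2.9% of all genes, and the groups did not overlap in 0 of the 10, against 6.77%. A separation that cut across the genotypes was seen in the deposited FPKM, though only narrowly for Ccr1 and Cx3cr1. It was common in the whole table. Of the 10913 genes, 19.7% lay below the 4 others in both libraries numbered 3 and 17.0% above. In both genotypes the library numbered 3 had less Cxcr4, Ccrl2, C5ar1 and Ccr1 by FPKM than the 4 libraries numbered 1 or 2. Ccr2 and Cx3cr1 were higher there. For Ccr1 this rested on the deposited scaling. By fragments, Tshr+/+ 3 held 6064 of 17072004 and Tshr+/+ 2 held 5669 of 17640437.

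Promoters of 4 genes that separated by library are shown because Cxcr4, C5ar1 and Ccrl2 were low in the same libraries and Ccr2 was high there. RefSeq's table for GRCm38.p6 held promoters for all 10 genes. Each window is printed 5′ to 3′ on the gene's strand, from 250 bases before the start site to 50 after it, and capitals mark matches of 6 motifs on either strand. Those of Cxcr4 (chr1:128592250-128592549, minus strand), C5ar1 (chr7:16259289-16259588, minus strand), Ccrl2 at the most upstream of its 3 start sites (chr9:111057469-111057768, minus strand) and Ccr2 (chr9:124101933-124102232, plus strand) read as follows.
Cxcr4: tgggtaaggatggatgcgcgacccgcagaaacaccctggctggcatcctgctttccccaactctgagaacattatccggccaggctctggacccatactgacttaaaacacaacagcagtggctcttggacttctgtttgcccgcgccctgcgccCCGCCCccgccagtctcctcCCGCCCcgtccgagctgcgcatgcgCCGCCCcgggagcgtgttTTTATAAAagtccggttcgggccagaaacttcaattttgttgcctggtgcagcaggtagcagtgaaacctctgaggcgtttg
C5ar1: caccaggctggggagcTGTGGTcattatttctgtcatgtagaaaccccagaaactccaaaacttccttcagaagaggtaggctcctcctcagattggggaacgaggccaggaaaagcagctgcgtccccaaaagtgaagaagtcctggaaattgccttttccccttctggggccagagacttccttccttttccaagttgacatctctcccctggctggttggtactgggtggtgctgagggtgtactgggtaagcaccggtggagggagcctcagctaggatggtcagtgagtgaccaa
Ccrl2: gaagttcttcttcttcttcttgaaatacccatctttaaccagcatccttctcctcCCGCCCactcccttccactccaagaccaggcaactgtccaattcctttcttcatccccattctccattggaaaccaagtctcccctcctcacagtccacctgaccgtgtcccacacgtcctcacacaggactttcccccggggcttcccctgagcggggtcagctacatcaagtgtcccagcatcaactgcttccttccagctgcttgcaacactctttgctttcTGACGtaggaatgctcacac
Ccr2: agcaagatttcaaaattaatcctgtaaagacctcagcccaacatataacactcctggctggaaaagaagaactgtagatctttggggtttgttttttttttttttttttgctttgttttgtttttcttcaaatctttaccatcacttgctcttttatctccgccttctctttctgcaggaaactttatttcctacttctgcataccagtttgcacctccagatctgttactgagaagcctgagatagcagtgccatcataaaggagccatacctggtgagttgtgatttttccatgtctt

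The motifs searched were the TATA box TATAAA, the GC box GGGCGG, the PU.1 core GAGGAA, the C/EBP site TTGCNNAA, the cAMP response element core TGACG and the RUNX core TGTGGT. They occurred in 13.6%, 35.7%, 28.3%, 10.8%, 20.8% and 16.8% of the 32851 promoters of that length. In Cxcr4 a TATA box began at position -30 from the start site, overlapped by a match on the other strand at -32, and 3 GC boxes on the other strand began at -95, -75 and -50. That window held 20 CpG dinucleotides and 59.3% G and C, where the median promoter held 7 and 52.7%. C5ar1 had a single RUNX match at -234, with 3 CpG dinucleotides. Ccrl2 had a GC box at -195 and a cAMP response element core at 30 bases past the start. Ccr2 held none of these motifs in its window, with 38.0% G and C and 1 CpG. That window begins at 124101933 and the deposited gene at 124101950, so nearly all of it lies within the gene. The windows of Ccr1 and Cx3cr1, which also separated in the deposited FPKM, are not printed. Ccr1, low in the libraries numbered 3 on that scale, held a PU.1 core and a RUNX core, with 44.0% G and C and 1 CpG. Cx3cr1, high there, held a RUNX core, with 54.3% G and C and 5 CpG. The PU.1 core occurred in the windows of Cxcr2, Ccr1, Fpr2 and Ltb4r1, and the C/EBP site in none of the members' windows. These are matches of letters in a window and were not tied to binding or to the pattern by library.

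On the FPKM scale, which is per gene length, Cxcr4 was the most abundant of the receptors, with a mean of 361 FPKM over the 6 libraries and rank 108 among all tested genes. It lay above the next gene, Ltb4r1, in 5 of 6 libraries, the exception being Tshr+/+ 3. Ltb4r1 (214 FPKM, rank 206) and C5ar1 (210 FPKM, rank 211) followed. The order of this neighbouring pair was not settled by the libraries, since Ltb4r1 exceeded C5ar1 in 2 of 6. Next came Fpr2 (168 FPKM), Ccr1 (122 FPKM), Ccrl2 (109.9 FPKM) and Cxcr2 (105 FPKM). C5ar1 lay above Fpr2 in 5 of 6 libraries. Fpr2 lay above Ccr1 in 6 of 6 libraries, whereas Ccr1 lay above Ccrl2, and Ccrl2 above Cxcr2, in only 4 of 6. Fpr1 (67.5 FPKM), Ccr2 (19.4 FPKM) and Cx3cr1 (4.10 FPKM, rank 6743) closed the order, each below its predecessor in 6 of 6 libraries. The 2 receptors best known from monocytes were thus the lowest of the set. Between 1197 and 14792 fragments stood behind each value of the 9 more abundant genes, so that counting error was at most 2.89% of a value. For Cx3cr1, with 194 to 618 fragments, it was at most 7.18%.

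**Figure D1:**
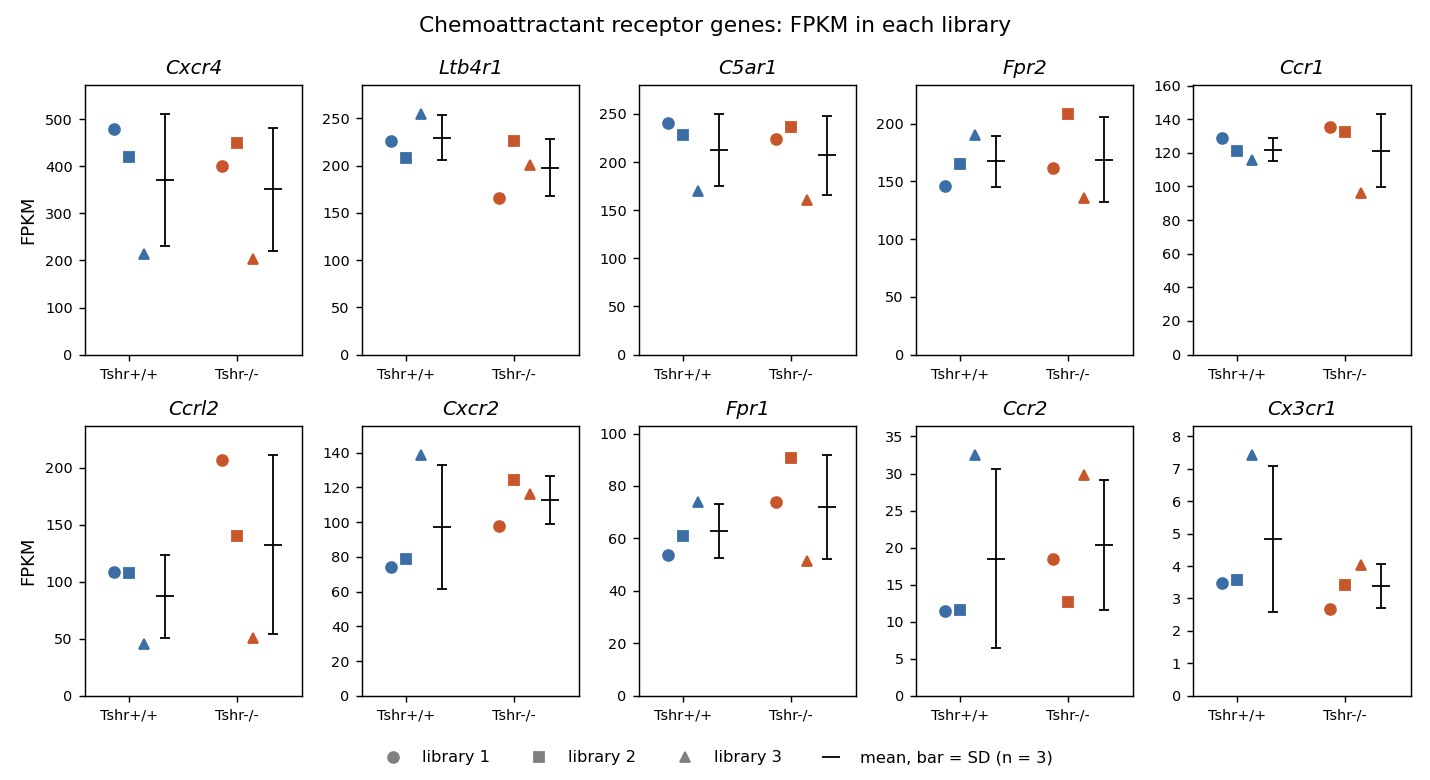
FPKM of each receptor gene (vertical axes, starting at 0, with a scale of their own) in the libraries labelled Tshr+/+ (blue) and Tshr-/- (orange), in order of mean level. Circles, squares and triangles are libraries 1, 2 and 3, and the black mark with its bar is the mean ± SD (n = 3). Triangles lie lowest in both groups for Cxcr4, C5ar1, Ccr1 and Ccrl2 and highest for Ccr2 and Cx3cr1.

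Cxcr4, the receptor of CXCL12 (ENSMUSG00000045382, GRCm38 chromosome 1, 128588199 to 128592293, minus strand), had 480, 421 and 213 FPKM in Tshr+/+ 1, 2 and 3 and 399.8, 450.0 and 203 FPKM in Tshr-/- 1, 2 and 3. Its low libraries were the 2 numbered 3, and the groups overlapped along nearly their whole range. The means were 371 ± 140.1 FPKM and 351 ± 130.3 FPKM (SD, n = 3), a log2 fold change (Tshr-/- over Tshr+/+) of -0.08 ± 0.40 (SE) on the log2(FPKM + 1) scale, with a 95% interval from -1.03 to 0.87 (limma, adjusted p = 0.9997). Without the libraries labelled Tshr-/- 1 and 2 the log2 fold change was -0.78, since the 1 library that remained was a low one.

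Cxcr2, which binds the neutrophil chemokines CXCL1 and CXCL2 (ENSMUSG00000026180, chromosome 1, 74153989 to 74161246, plus strand), had 74.1, 79.0 and 138.6 FPKM in Tshr+/+ 1, 2 and 3. In Tshr-/- it had 97.8, 124 and 116 FPKM. The highest value of all 6 was that of Tshr+/+ 3, and the lowest were those of Tshr+/+ 1 and 2. Means of 97.2 ± 35.9 and 112.8 ± 13.6 FPKM gave a log2 fold change of 0.26 ± 0.25 (SE), with an interval from -0.33 to 0.85. This gene pointed upward in each alternative that was run, at 0.55 without Tshr+/+ 3 and 0.10 without Tshr+/+ 1, and passed in none.

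Ccrl2 varied most of the set, with a highest value 4.57 times its lowest. It encodes an atypical receptor that binds chemerin and presents it to other cells without the usual G protein signal (ENSMUSG00000043953, chromosome 9, 111054486 to 111057519, minus strand). Tshr+/+ 1, 2 and 3 held 108.5, 108.0 and 45.3 FPKM and Tshr-/- 1, 2 and 3 held 207, 140.4 and 50.6 FPKM. Each Tshr-/- library lay above the Tshr+/+ library of the same number, by 0.93, 0.38 and 0.15 on the log2 scale, while the libraries numbered 3 of both groups lay below all others. The means of 87.3 ± 36.3 and 132.6 ± 78.5 FPKM differed by 0.49 ± 0.56 (SE) in log2, with an interval from -0.85 to 1.82. A fit that blocks on the replicate number, a pairing taken from these same data, gave the same estimate with an SE of 0.16. The unadjusted p was 0.0301 (limma, adjusted p = 0.820), so the gene did not pass there. Without the libraries labelled Tshr-/- 1 and 2 it turned to -0.67. The next gene, Ltf, which encodes the granule protein lactoferrin, lies 11719 bases away and had 3536 to 5958 FPKM, far above Ccrl2.

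Ccr1 and Ccr2 lie 133258 bases apart in the chemokine receptor cluster of chromosome 9. In the deposited FPKM they had opposite low and high libraries (r = -0.67 over the 6 libraries, as a description). Ccr1, a receptor of CCL3 and CCL5 on neutrophils and monocytes (ENSMUSG00000025804, 123962124 to 123968692, minus strand), was the steadiest, with 129, 120.8 and 115.7 FPKM in Tshr+/+ and 135.6, 132.2 and 96.1 FPKM in Tshr-/-. Its log2 fold change was -0.02 ± 0.16 (SE), and the interval from -0.39 to 0.35 was one of the narrowest of the set. Ccr2, the CCL2 receptor of classical monocytes (ENSMUSG00000049103, 124101950 to 124113557, plus strand), had 11.4, 11.6 and 32.5 FPKM in Tshr+/+ and 18.4, 12.6 and 29.9 FPKM in Tshr-/-. Here the libraries numbered 3 were the high ones in both groups. The log2 fold change of Ccr2 was 0.21 ± 0.45 (SE), from -0.87 to 1.29, and it was -0.10 without Tshr-/- 3. Of the genes between this pair, Ccr3, the eotaxin receptor, had 1.90 to 4.74 FPKM and Ccr1l1 had at most 0.302 FPKM.

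Cx3cr1, the fractalkine receptor of patrolling monocytes and macrophages, had 3.48, 3.58 and 7.42 FPKM in Tshr+/+ 1, 2 and 3 and 2.68, 3.40 and 4.03 FPKM in Tshr-/-. Each Tshr-/- value was below the Tshr+/+ value of the same number, by 0.28, 0.06 and 0.74 in log2 size, yet the groups overlapped. The log2 fold change was -0.36 ± 0.27 (SE), from -0.99 to 0.27, and it shrank to -0.06 without Tshr+/+ 3. Of 11 tested markers of resident macrophages 0 were called. The log2 fold change was below 0 in 10 of them. Between the libraries numbered 1, 2 and 3, 0, 2 and 7 of the 11 were higher in Tshr-/-. Their summed level was 316 to 399 FPKM in Tshr+/+ and 232 to 325 FPKM in Tshr-/-. The most abundant of them, the apolipoprotein gene Apoe, had 147 ± 27.5 and 96.2 ± 12.2 FPKM (SD, n = 3). Their part in the Cx3cr1 values was not tested, and in such mixed samples fewer cells of a type and less RNA per cell cannot be told apart. The deposited gene model (ENSMUSG00000052336, chromosome 9, 119901616 to 120069879, minus strand) spans 168264 bases. It overlaps 8 other genes with which it shares no exonic bases, Csrnp1 among them, and shares 78 exonic bases with Gm33858 on the other strand. Whether fragments were counted by strand was not given in the sources used here, so reads of such a pair cannot be told apart.

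The formyl peptide receptors recognise peptides that start with N-formylmethionine, which bacteria and mitochondria release, and Fpr2 also binds annexin A1. Fpr1 (ENSMUSG00000045551, chromosome 17, 17876471 to 17883940, minus strand) and Fpr2 (ENSMUSG00000052270, 17887824 to 17893952, plus strand) are neighbours 3884 bases apart and point away from each other. Fpr1 had 53.7, 60.9 and 74.1 FPKM in Tshr+/+ 1, 2 and 3 and 73.9, 90.8 and 51.5 FPKM in Tshr-/-. Fpr2 had 146, 165 and 190.6 FPKM in Tshr+/+ and 162, 209 and 136 FPKM in Tshr-/-. Both were highest in Tshr-/- 2, and the library numbered 3 was the highest of Tshr+/+ but the lowest of Tshr-/-. The log2 fold changes were 0.17 ± 0.23 (SE), from -0.37 to 0.70, for Fpr1 and -0.00055 ± 0.19 (SE), from -0.44 to 0.44, for Fpr2. Without the libraries labelled Tshr-/- 1 and 2, Fpr1 turned to -0.27. Fpr2 shares 48 exonic bases with Fpr3 on the same strand, which had at most 1.88 FPKM.

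C5ar1, the receptor of the complement fragment C5a (ENSMUSG00000049130, chromosome 7, 16246743 to 16259540, minus strand), had 240.2, 228 and 169.8 FPKM in Tshr+/+ 1, 2 and 3 and 224, 236 and 160.4 FPKM in Tshr-/-. The 2 libraries numbered 3 were again the low ones. The log2 fold change was -0.04 ± 0.20 (SE), from -0.52 to 0.44. C5ar2, the second C5a receptor and next gene at a distance of 2589 bases, had 4.57 to 8.19 FPKM.

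Ltb4r1, the high-affinity receptor of leukotriene B4 (ENSMUSG00000046908, chromosome 14, 55765962 to 55768494, plus strand), had 226.0, 208 and 254.9 FPKM in Tshr+/+ and 165.9, 226.2 and 201 FPKM in Tshr-/-. Its unadjusted p of 0.191 was the smallest of the set (limma, adjusted p = 0.9997). The log2 fold change of -0.22 ± 0.15 (SE) had an interval from -0.58 to 0.14, and it stayed below 0 in each alternative that was run, at -0.10 without Tshr-/- 1. Only Tshr-/- 2 exceeded its Tshr+/+ counterpart. The low-affinity receptor gene Ltb4r2, which ends 824 bases upstream, had 0.174 to 0.452 FPKM.

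**Figure D2:**
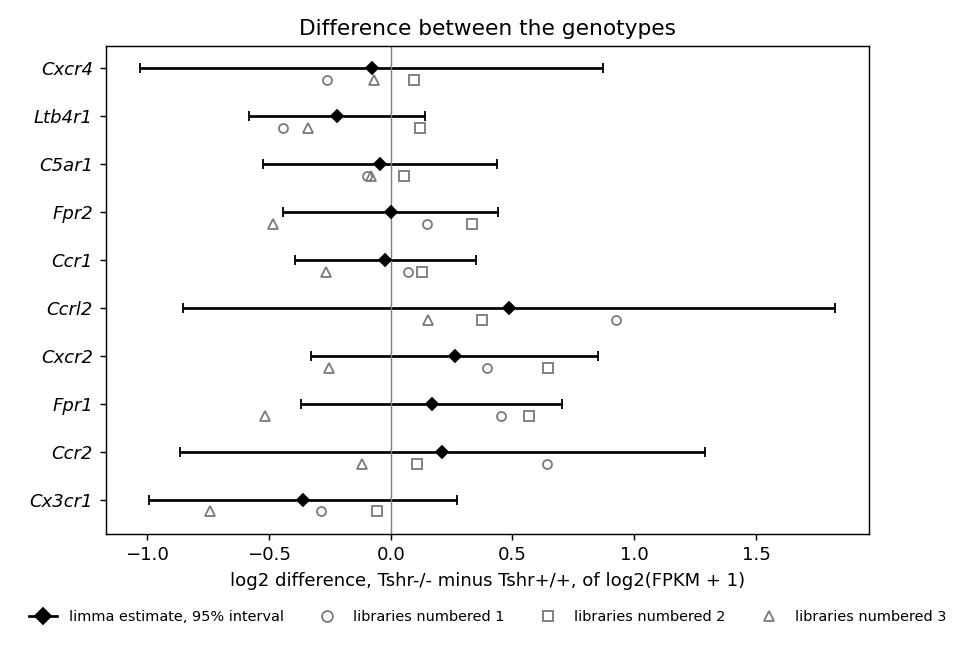
Difference between the genotypes for each receptor gene on the log2(FPKM + 1) scale (horizontal axis). Diamonds with bars are limma's estimates with 95% intervals, and open symbols are the differences between libraries of the same number. All 10 intervals include 0. Ccrl2 has its 3 symbols above 0 and Cx3cr1 its 3 below.

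As a set, 4 of the 10 had a log2 fold change above 0 and 6 below, with a median of -0.01, the same as the -0.01 of all genes tested. The median size of the change without its sign was 0.19 against 0.10 over all genes tested. In the 3 differences between libraries of the same number, 1 gene (Ccrl2) was higher in each and 1 (Cx3cr1) lower in each, where 26.7% of all tested genes kept one sign.

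The pattern by library cut across the genotypes. In 4 of the 10 genes (Cxcr4, Ccrl2, C5ar1 and Ccr1) both libraries numbered 3 lay below the 4 others, against 19.7% of all genes tested. For Ccr1 this rested on the deposited scaling. In 2 of the 10 (Ccr2 and Cx3cr1) both lay above, against 17.0%. This count was made after the values were seen, the labels do not say what the numbers stand for, and a large part of the whole table showed the same separation. Relative to its mean over the 6 libraries, Ccrl2 stood at -1.07 and -0.91 in log2 in Tshr+/+ 3 and Tshr-/- 3, Cxcr4 at -0.68 and -0.74, and Ccr2 at 0.84 and 0.72. Cxcr2, Fpr1, Fpr2 and Ltb4r1 did not split this way.

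**Figure D3:**
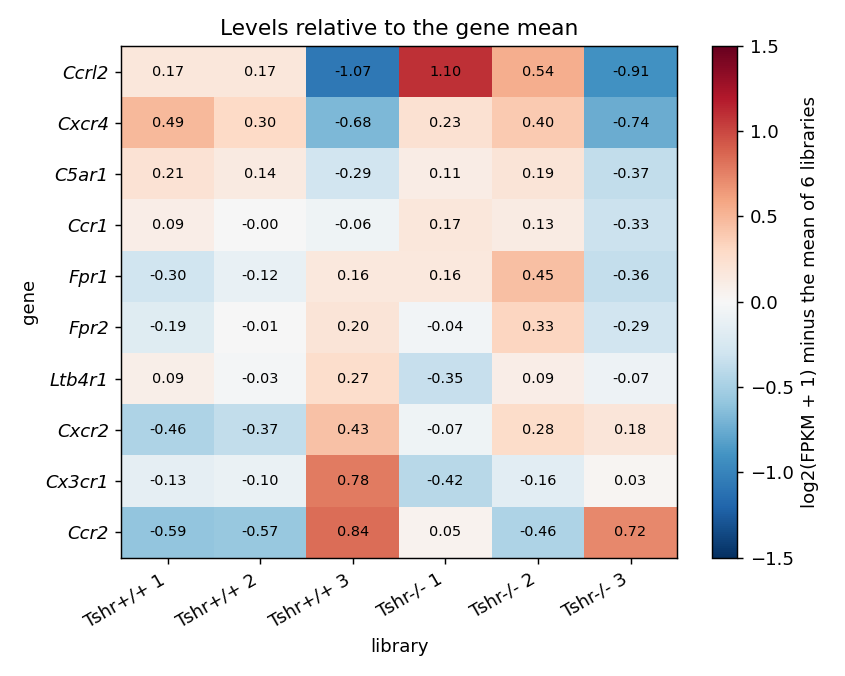
Level of each receptor gene in each library as log2(FPKM + 1) minus the gene's mean over the 6 libraries (colour and printed number). Rows are ordered by the mean of the libraries numbered 1 and 2 minus that of the libraries numbered 3. The columns Tshr+/+ 3 and Tshr-/- 3 are negative for Ccrl2, Cxcr4, C5ar1 and Ccr1 and positive for Ccr2, Cx3cr1 and Cxcr2.

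Some markers of cell types separated by number as well. Over all genes tested, 19.7% lay below the 4 others in both libraries numbered 3 and 17.0% above. Of 11 immature neutrophil markers 2 lay below and 0 above, and of 11 resident macrophage markers 0 and 2. For the B lineage these counts were 0 and 2 of 5 tested, for dendritic cells 1 and 0 of 5. For eosinophils, basophils and mast cells they were 0 and 1 of 7, and for T, NK and erythroid cells 0 and 0. Of 15 markers of mature neutrophils, 6 (S100a9, Cd177, Mmp8, Il1r2, Trem1 and Clec4d) lay lower in both libraries numbered 3 than in the 4 others and 0 higher. The summed level of all 15 was 83902 to 100729 FPKM in Tshr+/+ and 69188 to 107319 FPKM in Tshr-/-. S100a9 (34947 to 54930 FPKM) and S100a8 (25941 to 36877 FPKM) weigh most in it. In the deposited FPKM, whose scaling differed by number, the lowest library of each group was that numbered 3. By fragments, Tshr+/+ 3 held the most S100a8 of its group (429299) and the least S100a9 (379021). Of 13 tested monocyte markers, 5 (Ctss, Fn1, Csf1r, Ms4a6c and Irf8) lay higher in both and 2 (Cd14 and Nr4a1) lower, with sums of 1390 to 2055 FPKM in Tshr+/+ and 1470 to 2303 FPKM in Tshr-/-. The monocyte sum did not follow the markers that were higher, being lowest in Tshr+/+ 3. Cd14, the most abundant of these markers, was among those that were lower. These markers are named after their values were seen. Between the genotypes 0 markers of any list were called with all libraries, while the fit without both libraries numbered 3 called the basophil marker Mcpt8. Of the tested B lineage markers 1 was above 0 and 4 below, of T and NK cell markers 4 and 1, of dendritic cell markers 0 and 5, of erythroid markers 4 and 0, and of eosinophil, basophil and mast cell markers 5 and 2. No marker in these lists was at 0 in all libraries. The part of cell composition in the values of Cxcr4, Ccrl2, C5ar1 and Ccr2 was not tested.

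Ratios within a library do not depend on its scaling. There were 6.48, 5.33 and 1.54 FPKM of Cxcr4 for each FPKM of Cxcr2 in Tshr+/+ 1, 2 and 3, and 4.09, 3.62 and 1.75 in Tshr-/- 1, 2 and 3. The retention receptor thus exceeded the release receptor in all 6 libraries, by the least in those numbered 3. The ratio of Fpr2 to Fpr1 kept within 2.19 to 2.72 over the 6 libraries, the narrowest range of the ratios plotted, with the libraries numbered 3 in among the others. C5ar1 had 1.06, 1.09 and 0.666 times the level of Ltb4r1 in Tshr+/+ and 1.35, 1.05 and 0.797 times in Tshr-/-. Ccr2 had 3.29, 3.25 and 4.38 times that of Cx3cr1 in Tshr+/+ and 6.88, 3.71 and 7.41 times in Tshr-/-, so that Tshr-/- 1 lay above Tshr+/+ 3. The groups overlapped in each ratio.

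**Figure D4:**
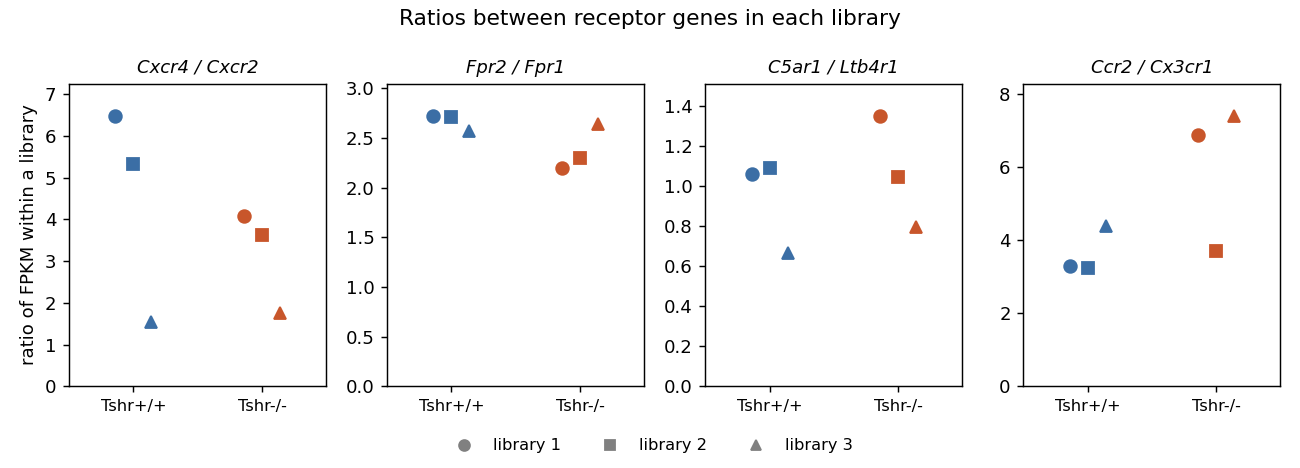
Ratio of the FPKM of a pair of receptor genes within each library (vertical axes, starting at 0), for Tshr+/+ (blue) and Tshr-/- (orange). Circles, squares and triangles are libraries 1, 2 and 3. The ratio of Cxcr4 to Cxcr2 is 1.54 and 1.75 in the libraries numbered 3 and between 3.62 and 6.48 in the others.

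Likeness of pattern was described by Pearson's r of log2(FPKM + 1) over the 6 libraries, which share their genotype groups and the separation by number, so that high values are common across the table. Among genes with a mean of at least 5 FPKM, the nearest to Cxcr4 was C5ar1 (r = 0.998), followed by Cd80, a costimulatory ligand of T cells (0.995), and the long noncoding RNA Tug1 (0.994). Nearest to Ccr2 were Tmpo, a protein of the nuclear lamina (0.991), Smc6 (0.990) and Csgalnact2 (0.989). Ccrl2 was nearest to Tagap (0.981), Paf1 (0.973) and Parp10 (0.973), and Ccr1 to Slc10a3 (0.979), the acute-phase gene Orm1 (0.976) and Nudt4 (0.971). The nearest to Cx3cr1 were Cdc25a, a phosphatase that drives the cell cycle (0.992), H2afx (0.969) and Tgfb1 (0.965). Cxcr2 was nearest to Gga3 (0.998), Gfpt1 (0.997) and Ighv1-41 (0.996), an immunoglobulin pseudogene. For Fpr2 these were Frg1 (0.997), Txnl4b (0.996) and Lmo4 (0.988), for Fpr1 Ppp2r5a (0.989), Mgll (0.978) and Mrpl34 (0.977), and for Ltb4r1 Slc8b1 (0.983), Spg21 (0.975) and Tmem192 (0.966). C5ar1 had Cxcr4 (0.998), Tug1 (0.997) and Dazap2 (0.994). Within the receptor set, Fpr1 and Fpr2 had r = 0.93, Cxcr4 and Ccrl2 0.855, and Cxcr4 and Ccr2 -0.96.

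Other genes of the pathway did not pass in either direction. Of 33 further chemoattractant receptors listed, 7 were tested, with 1 above and 6 below 0 and 0 called, and a median log2 fold change of -0.25, which was -0.0869 without Tshr+/+ 1, -0.084 without Tshr+/+ 2 and -0.16 without Tshr-/- 1. S1pr4, a sphingosine 1-phosphate receptor, was the most abundant of them at 49.8 ± 3.18 FPKM in Tshr+/+ against 35.8 ± 10.6 in the other group (SD, n = 3). Cxcr1, the companion of Cxcr2 and its neighbour at 30539 bases, had 1.80 ± 1.01 and 3.47 ± 0.832 FPKM. Both had an unadjusted p under 0.05 and a limma adjusted p = 0.9997. Ptafr, the receptor of platelet-activating factor, shared the pattern of Cxcr4, with 56.5, 59.3 and 15.2 FPKM in Tshr+/+ and 43.3, 51.5 and 13.3 FPKM in Tshr-/-, and is named here after its values were seen. The 4 genes Fpr-rs3, Fpr-rs4, Fpr-rs6 and Fpr-rs7 were listed at 0 in all libraries.

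Ligands and the enzymes that make them had a median of -0.01 over 19 tested genes, 9 above and 10 below 0, with 0 called. Camp, the cathelicidin precursor and an Fpr2 ligand, was the most abundant at 10448 ± 1673 and 10461 ± 2924 FPKM. Ccl2, the ligand of Ccr2, had 21.5 ± 9.43 and 32.5 ± 13.3 FPKM, and Ccl4 had 61.3 ± 7.39 and 80.1 ± 24.0 FPKM. Cxcl2, the ligand of Cxcr2, was named after its values were seen. It had 625, 689 and 393.5 FPKM in Tshr+/+ and 827, 848 and 409 FPKM in Tshr-/-, low in the libraries numbered 3 as Cxcr4 was. Cxcl12 itself, named likewise, had 0.623 to 2.97 FPKM.

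Of the signalling genes below the receptors, all 30 listed were tested, 19 above and 11 below 0, with a median of 0.02 and 0 called. Both libraries numbered 3 lay below the others in 7 of them and above in 5, against 19.7% and 17.0% of all genes tested. Pik3r5 and Pik3cd, subunits of phosphoinositide 3-kinases, had 23.2 ± 5.50 and 29.3 ± 4.35 FPKM and 46.0 ± 9.31 and 56.0 ± 6.06 FPKM. Rac2, the Rac of blood cells, was the most abundant at 587 ± 50.2 and 544 ± 81.9 FPKM. Among genes of desensitisation and internalisation, 12 of 20 tested lay above 0 and 8 below, with a median of 0.03 and 0 called. The arrestin gene Arrb2 had 259 ± 9.93 and 255 ± 56.2 FPKM. Rtp4, a receptor chaperone that interferon induces, had 22.3 ± 4.82 and 35.1 ± 10.9 FPKM, and Ric8b, a chaperone of G protein alpha subunits, had 3.18 ± 0.365 and 3.72 ± 0.137 FPKM.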

How the data were processed

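RNA libraries were made from total RNA with a SMARTer kit, per the labels' protocols. The deposited table gives FPKM for 6 libraries, made by the authors. Per the submitters' processing notes the builds were GRCm38 and mm10, with aligner and counter not given in the sources used here. Columns headed HO were read as Tshr-/-. The deposited FPKM carry a scaling between libraries, with a library size 0.939 to 1.12 times the sum of fragments. It was 1.08 and 1.12 times in Tshr+/+ 3 and Tshr-/- 3 and 0.939 to 0.994 times in the others. Multiplied by gene length they were whole multiples of 1 fragment in 100% of values (tolerance 0.01), which gave the fragment numbers. Positions and lengths of the 10 genes equalled those of GENCODE release M21.

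Values were put on log2(FPKM + 1). The 10913 genes reaching 1 FPKM in 3 or more libraries were fitted by group with limma 3.58.1 under R 4.3.3, with a variance trend, two-sided, Benjamini-Hochberg adjustment over all genes and a threshold of 0.05. The fit was also run on simulated counts with known fold changes. These were drawn without a separation by library number, so that run does not measure what the fit can find here. Fold changes on log2(FPKM + 1) understate those of low genes. Deviations from the group means correlated between libraries of the same number (0.243, 0.262 and 0.468 for numbers 1, 2 and 3), above 0.1 in each, so by that rule the number was taken as a pairing from the data and used as a block in an alternative. Tshr+/+ 2 with Tshr-/- 1, of unlike number, reached 0.344, above the values for numbers 1 and 2. Members, lists and tests were chosen with earlier results of these data known. The genes named are the 10 members, Tshr, from each pathway list the most abundant and the 2 of smallest p, the 3 of most like pattern, the most abundant cell markers, and neighbours in the genome. Itgam, Cd3e and Ms4a1 serve to check the cell type. Cd3e, Ms4a1, Mcpt8 and the markers listed by library were chosen after their values were seen, and others are said to have been chosen after their values were seen. Sequences are from RefSeq (GRCm38.p6).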

Additional observations from a re-analysis of the deposited data

How the results depend on the processing

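Alternatives were a pseudocount of 0.1, no filter, a mean of at least 5 FPKM, rescaling to equal totals, quantile scaling, limma's voom on whole fragments, array weights, robust moderation, the replicate number as a block, each library left out, and 2 pairs of libraries left out. In all of them 0 of the 10 receptor genes passed (with a mean of at least 5 FPKM, 9 were tested). The block called 0 genes of the whole table too and changed no call. Before adjustment, some receptor genes fell under limma's 0.05 in an alternative, which 0 of the 10 did in the main fit. Without both libraries numbered 3 these were Cxcr2, Fpr1 and Ccrl2, at log2 fold changes of 0.52, 0.51 and 0.65. With array weights they were Cxcr2 (0.35), Ccr2 (0.57) and Ltb4r1 (-0.30). The rest were Cxcr2 without Tshr+/+ 3 (0.55), Ccrl2 without Tshr-/- 3 (1.06) and Ccrl2 in the block (0.49). Array weights called 24 genes, leaving out both libraries numbered 3 called 24 (the listed marker Mcpt8 among them), and leaving out single libraries 0 to 2 (2 without Tshr-/- 3).

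Directions turned in some alternatives, and not only for estimates near 0. Ccr1 was at 0.0295 with equal totals, 0.0532 with quantile scaling, 0.0882 with array weights and 0.10 without both libraries numbered 3. Fpr2 was at 0.0506, 0.0148, 0.0214 and 0.24 in the same order and at 0.0025 with voom. C5ar1 was at 0.00898 with equal totals. Without the libraries labelled Tshr-/- 1 and 2, Ccrl2 was at -0.67 and Fpr1 at -0.27. With single libraries left out, the log2 fold changes ran from -0.44 to 0.27 for Cxcr4, -0.11 to 0.14 for Ccr1, -0.10 to 0.68 for Ccr2, 0.06 to 1.06 for Ccrl2, -0.0155 to 0.39 for Fpr1, -0.16 to 0.14 for Fpr2 -0.20 to 0.13 for C5ar1, 0.0991 to 0.547 for Cxcr2, -0.518 to -0.0627 for Cx3cr1 and -0.324 to -0.101 for Ltb4r1. Cxcr2, Cx3cr1 and Ltb4r1 kept their direction in each alternative that tested them. The median of the further receptors was -0.0391 with no filter, where it ran over more genes, and between -0.33 and -0.084 with single libraries left out (-0.0869 without Tshr+/+ 1 and -0.084 without Tshr+/+ 2). That of the ligands was -0.20 without the libraries labelled Tshr-/- 1 and 2 and between -0.0463 and 0.18 with single libraries left out. The signalling genes were at 0.069 with equal totals and -0.0377 without the libraries labelled Tshr-/- 1 and 2. For these shifts the cause was not tested. Among the 10 genes the spread between libraries, not depth, limits the precision.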
